A study of Sus scrofa with 9 samples.

Results

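The blood transcriptome of miniature pigs was compared between 24 h and 6 h after an oral dose of azide, and the level before dosing served as the mark for how far each transcript had come back. Members were the 3 arrays titled for blood at 24 h and the 3 titled for blood at 6 h, which are 6 of the 9 arrays of the series. The other 3 arrays hold blood taken before feeding. Each group has 3 arrays and each array carries the RNA of 1 whole blood sample drawn into a PAXgene tube, which lyses the cells and preserves RNA at the time of the draw. All animals were male Clawn miniature pigs of specific-pathogen-free stock, fed 300 µg/kg azide. Their age is given as 7 months in one label and as 7 weeks in another. No blood from undosed pigs at 6 h or 24 h was analysed here, so the hour of the draw, handling and the dose share the same contrast. Labels do not say whether arrays of different times come from the same animal, and p-values therefore measure only the spread between these samples.

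Azide inhibits complex IV (cytochrome c oxidase), where mitochondrial electrons reach oxygen, and it also inhibits catalase and other heme enzymes. Whole blood RNA comes from leukocytes, platelets and immature red cells, and a stress response in blood usually involves entry of neutrophils and monocytes and departure of lymphocytes from the circulation under adrenal hormones. Inflammatory genes such as the interleukin-1 receptor antagonist are typically induced early, and repressors such as NFKBIA are induced by the pathway they inhibit. In bulk blood, fewer cells of a type and less RNA per cell cannot be told apart.

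Values are log2 of the scanner's processed signal minus the array's own 75th percentile of it, so 0 is the 75th percentile of that array. A difference of 1 is therefore a doubling. Of the 43603 probes, 19780 were bright enough to test, and 7208 (16.5%) could be given a gene symbol or a protein name. Among the 3332 named transcripts tested (1 probe each), members of 44 protein classes were picked by symbol and by the description of the probe. Most named transcripts fell in no class. Classes could share members, as CCR7 stood with both T cell genes and chemokine receptors, and some proteins were counted through more than 1 database entry.

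The arrays were not equal. Between 39.9% and 56.6% of spots lay well above background, and replicate 3 at 24 h was the brightest array, with a 75th percentile of 7.70 (log2) against 5.80 to 6.83 on the other 8. At 6 h, replicate 3 had the highest neutrophil, monocyte and stress gene levels, and replicate 2 had levels closest to those before feeding in many classes. Slide and time cannot be told apart, since each time was scanned on a slide of its own.

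No probe differed between 24 h and 6 h after Benjamini-Hochberg adjustment of limma's moderated test over 19780 probes (0 called, 0.0%), and the smallest adjusted p was 0.112. Before adjustment 4272 probes had a p under 0.05, with 7.98% of all probes tested higher at 24 h and 13.6% lower. The 3 arrays at 24 h lay above all 3 at 6 h for 10% of probes and below them for 16.5%. By the sign of the mean difference 56.3% of probes were lower at 24 h, with a median of -0.09. The share higher at 24 h was thus 43.7%, and it was 58.4% with the 75th percentile taken over probes detected on all 9 arrays and 85.4% with spike-in centring.

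This count depended on 6 h replicate 2 and on the weighting of arrays. Without 6 h replicate 2 the same test called 1764 probes, 472 higher and 1292 lower at 24 h. Weighting arrays by their quality called 5768, and leaving out any one of the other 8 arrays called none. In simulated data with the same spread of each probe, 38% of the probes given a log2 change of 2 were recovered and 1% of those given a change of 1. There the noise was independent between probes and few probes were changed, so these shares need not hold for the real arrays. Because nothing passed in the fit of all arrays, every difference below is given as a value with its standard error, and none is a call.

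7 genes carry the patterns that follow, and the first 30 of the 60 bases of each probe are printed so that the transcript measured can be traced. They are given as the scanner files list them, in lower case with no part marked.
HP: atctgaagtatgtcatgctgccggtggctg
LTF: ttttcacaattccctgctggcctcttagca
HSP70.2: tgagcacaagaggaaggagctggagcaggt
IL-1 receptor antagonist: aagtttcccactccctgtgacttaagctct
IRF7: gatggaggtggagcagccggcctagggtgg
CD3G: gcattgagctgaattcagccactgtgtctg
HSP90AA1: agtttattggctaccccattactctcttcg

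Transcripts of neutrophils and monocytes had the lowest medians of the 44 classes at 24 h relative to 6 h. Of 8 neutrophil transcripts 7 were lower at 24 h and the class median was -1.27, against -0.09 over all probes. Of 14 monocyte and macrophage transcripts 12 were lower, with a median of -1.39. All 24 h arrays lay below all 6 h arrays for 5 of the neutrophil and 7 of the monocyte transcripts, as they did for 16.5% of all probes.

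The mean level of the neutrophil class was 4.65, 4.91 and 4.79 before feeding. It was 6.21, 5.64 and 6.80 at 6 h and 5.14, 5.15 and 4.74 at 24 h. All 6 h arrays were above all others, and the 24 h arrays reached down into the range before feeding. For the monocyte class the levels were 3.39, 3.56 and 3.68 before feeding, 4.57, 4.51 and 5.83 at 6 h, and 3.50, 3.88 and 4.74 at 24 h. Here 24 h replicate 3 remained as high as the lower 6 h arrays, so the groups overlapped. Without 6 h replicate 3 the medians were -0.91 for neutrophil and -0.81 for monocyte transcripts.

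LTF, lactoferrin of neutrophil granules, had levels of 3.16, 3.03 and 3.30 before feeding, 8.45, 5.27 and 9.26 at 6 h and 4.42, 4.06 and 5.23 at 24 h. The 24 h arrays lay below all 6 h arrays and above all arrays before feeding. The difference between 24 h and 6 h was -3.09 ± 0.81 (SE, n = 3 arrays a group; adjusted p = 0.112 in limma). NCF1, a subunit of the phagocyte oxidase, differed by -1.58 ± 0.53. MMP9, a collagenase stored in granules, differed by -1.82 ± 0.55. S100A6, a calcium-binding protein, differed by -0.87 ± 0.27. It belongs to the annexins and S100 proteins, of which 8 of 9 were lower at 24 h, with a median of -0.69 that was -0.22 with quantile normalization relative to the shift of all probes.

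CD14, the monocyte co-receptor for endotoxin, had levels of 2.78, 4.29 and 4.48 before feeding, 6.25, 5.63 and 7.34 at 6 h and 3.73, 4.87 and 5.20 at 24 h. The 24 h arrays lay below the 6 h arrays, and the difference was -1.81 ± 0.58. TLR4, its signalling partner, differed by -1.83 ± 0.63 (-0.99 without 6 h replicate 3) and TLR2 by -1.68 ± 0.46. LGALS3, the lectin galectin-3, differed by -1.49 ± 0.34, and its 3 probes gave between -1.54 and -1.49. SIRPA, an inhibitory receptor of myeloid cells, differed by -1.77 ± 0.48. CD36, a scavenger receptor of monocytes and platelets, went the other way, with a difference of 1.46 ± 0.51 and no overlap between 24 h and 6 h arrays.

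**Figure D1:**
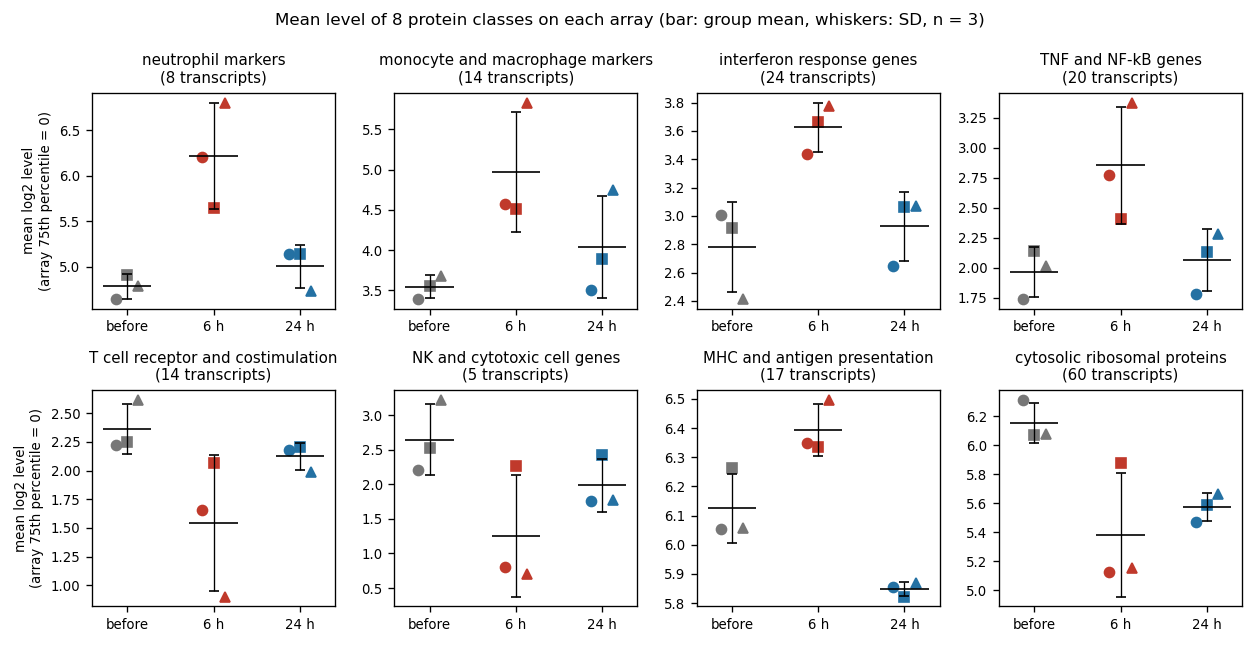
Mean log2 level of 8 protein classes on each array (array 75th percentile = 0), by time. Points are arrays (circle, square and triangle for replicates 1 to 3), bars the group mean and whiskers the SD over 3 arrays; neutrophil transcripts stand at 5.64 to 6.80 at 6 h and at 4.74 to 5.15 at 24 h, while MHC transcripts at 24 h (5.82 to 5.87) lie below all other arrays.

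Genes of T cells and cytotoxic cells had the opposite sign. Of 14 T cell transcripts 12 were higher at 24 h than at 6 h, with a median of 0.52 (0.31 without 6 h replicate 3). Of 5 natural killer and cytotoxic cell transcripts 4 were higher, with a median of 0.68 (1.41 without 6 h replicate 2 and 0.42 without 24 h replicate 2). Only 2 of the 14 and 1 of the 5 had 24 h arrays above every 6 h array, beside 10% of all probes, because 6 h replicate 2 lay near the 24 h arrays. T cell class levels were 2.22, 2.25 and 2.61 before feeding, 1.66, 2.07 and 0.90 at 6 h and 2.18, 2.21 and 1.99 at 24 h.

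CD3G, a chain of the T cell receptor complex, had levels of 4.58, 3.1 and 4.07 before feeding, 1.74, 3.63 and 0.97 at 6 h and 3.44, 3.73 and 4.04 at 24 h. Replicates 1 and 3 at 6 h were low and replicate 2 was not, and the groups overlapped. Its difference was 1.62 ± 0.61 (adjusted p = 0.173 in limma), or 1.05 without 6 h replicate 3, and its other probe gave 0.60. CD3D, another chain of that complex, differed by 0.63 ± 0.45, and by 0.092 without 6 h replicate 3.

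CD8A, the co-receptor of cytotoxic T cells, differed by 1.21 ± 0.47. ICOS, a costimulatory receptor, differed by 0.85 ± 0.30 with no overlap. KLRK1, the activating receptor NKG2D, had levels of 2.44, 1.63 and 3.04 before feeding, -0.43, 1.96 and -0.37 at 6 h and 1.48, 2.07 and 2.14 at 24 h. The same 6 h arrays were low as for CD3G, and the difference was 1.51 ± 0.60. CCR7, which guides naive T cells to lymph nodes, differed by -0.23 ± 0.37 and stood at 24 h below its level before feeding by -0.99.

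B cell and immunoglobulin transcripts were divided, with 10 of 20 higher and a median of -0.01. Of 8 platelet transcripts 6 were lower, with a median of -0.36 that ran from -0.82 to 0.29 over 21 other settings, and none separated the groups. The 3 hemoglobin and red cell transcripts were lower, with a median of -0.61 that was -0.20 without 24 h replicate 3. Genes of dividing cells (18 transcripts) had a median of 0.32 (0.084 to 0.68 leaving out 1 array). The sorting by symbol and description placed in this class PCNA, the sliding clamp of DNA replication, which differed by 1.16 ± 0.42. It also placed there DNA topoisomerase 1, which differed by -1.89 ± 0.40.

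**Figure D2:**
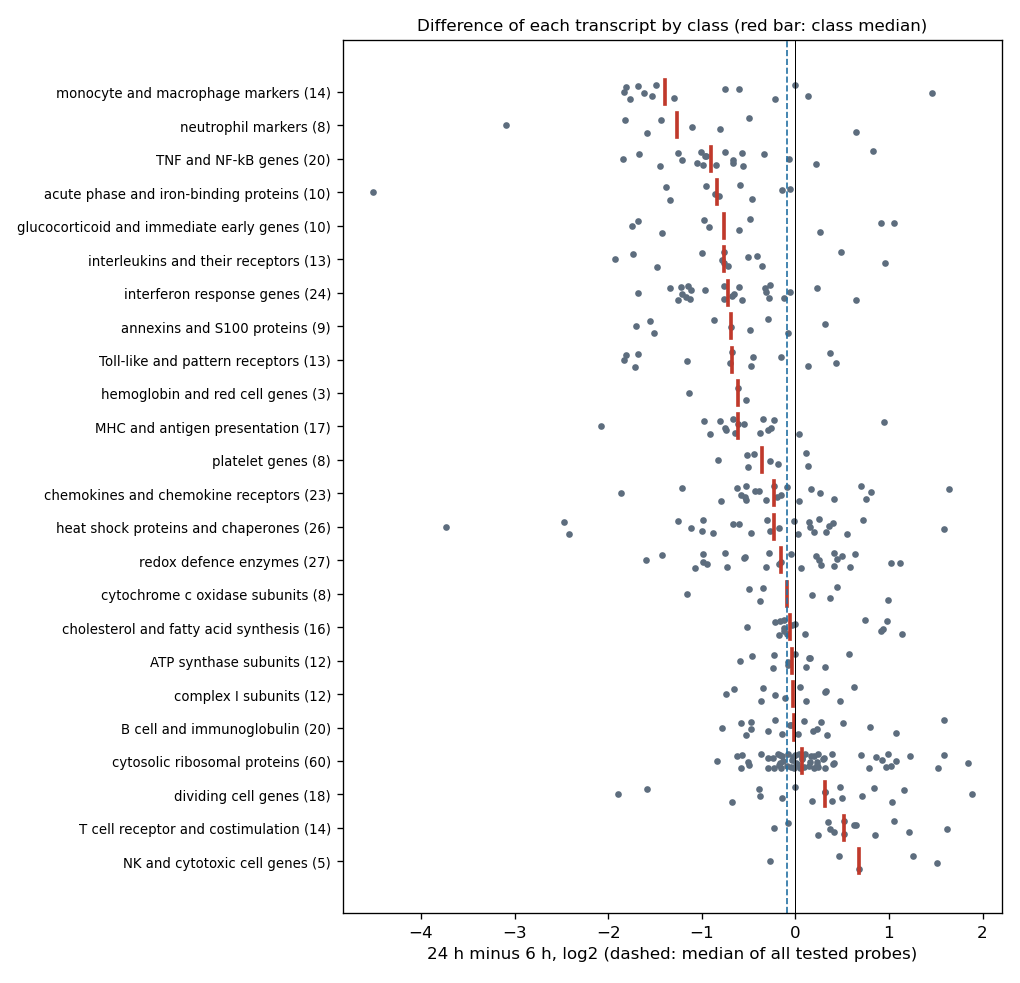
Difference between 24 h and 6 h (log2, 24 h minus 6 h) of each transcript in 24 protein classes, with the number of transcripts in brackets. Each point is 1 transcript, red bars are class medians and the dashed line is the median of all probes (-0.09); medians run from -1.39 for monocyte and macrophage markers to 0.68 for cytotoxic cell genes.

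Inflammatory mediators and their receptors were mostly lower at 24 h. Of 13 interleukins and their receptors 11 were lower (median -0.76), of 20 TNF and NF-kB genes 18 (median -0.90), and of 13 Toll-like and pattern receptors 10 (median -0.68). Without 6 h replicate 3 the first and second of these medians were -0.42 and -0.54. IL4R, ADAM17 and TLR4 were each counted through a pair of database entries in these classes. CD14, TLR2 and TLR4 were also counted as monocyte transcripts. Chemokines and their receptors were less uniform, with 15 of 23 lower and a median of -0.22 (-0.51 to 0.036 over 21 other settings). Secreted mediators varied. IL18 differed by -0.77, IL1A by -0.51, IL10 by -0.36 and TNF by -0.06. Interleukin-8 was higher at 24 h by 0.96 ± 0.46 and CXCL10 by 1.64 ± 0.77. The interleukin-8 probe was near background, with a mean level of -2.93 over all arrays.

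The interleukin-1 receptor antagonist, a secreted inhibitor of interleukin-1, had levels of 5.96, 6.75 and 6.12 before feeding, 8.17, 7.81 and 9.01 at 6 h and 6.04, 6.76 and 6.42 at 24 h. The 24 h arrays lay wholly below those of 6 h and covered nearly the same range as before feeding. Its difference was -1.92 ± 0.37, a 3.80-fold lower signal, with an adjusted p of 0.112 in limma. IL6R, the interleukin-6 receptor, differed by -1.74 ± 0.48. IL16, a chemoattractant for CD4+ cells, differed by -1.0 ± 0.27.

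NFKBIA, the inhibitor that holds NF-kB in the cytoplasm, differed by -1.67 ± 0.47, and its 3 probes gave between -1.67 and -0.34. TNFRSF1B, a receptor for tumor necrosis factor, differed by -1.84 ± 0.52. CCR1, a chemokine receptor of myeloid cells, had levels of 6.58, 6.56 and 6.26 before feeding, 8.04, 7.94 and 9.54 at 6 h and 6.26, 6.50 and 7.17 at 24 h. Its groups did not overlap and the difference was -1.86 ± 0.43. CXCL16, a membrane-bound chemokine, differed by -1.21 ± 0.39. CXCR4, the receptor for CXCL12, was 0.27 ± 0.37 higher at 24 h than at 6 h (0.036 to 0.54 leaving out 1 array) and 1.13 higher than before feeding.

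Interferon response genes were lower in 22 of 24 cases, with a median of -0.72, and 10 of them had all 24 h arrays below all 6 h arrays, beside 16.5% of all probes. Mean levels were 3.01, 2.92 and 2.41 before feeding, 3.43, 3.66 and 3.78 at 6 h and 2.65, 3.06 and 3.07 at 24 h. All 6 h arrays were above all others. Unlike the myeloid genes, this class had 6 h replicate 2 within the range of the other 6 h arrays.

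IRF7, the transcription factor that drives interferon production, had levels of 5.52, 6.08 and 5.06 before feeding, 6.58, 7.47 and 7.37 at 6 h and 5.09, 5.91 and 5.36 at 24 h. Here replicate 2 was the highest 6 h array. The difference was -1.69 ± 0.37, and its other probe gave -0.71. IFITM1, a membrane protein that restricts viral entry, differed by -1.23 ± 0.30.

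Acute phase and iron-binding transcripts were lower at 24 h in 10 of 10 cases (median -0.84, and -0.37 without 24 h replicate 3). HP, the haptoglobin that binds free hemoglobin, had the largest difference in this class, with levels of -1.72, -0.32 and -0.51 before feeding, 5.12, 0.59 and 7.76 at 6 h and -0.24, -0.01 and 0.15 at 24 h. Replicates 1 and 3 at 6 h were far above replicate 2, which itself was only a little above the 24 h arrays. Its difference was -4.52 ± 1.33, a 22.9-fold lower signal (adjusted p = 0.121 in limma), and the second probe gave -4.42. Leaving out 6 h replicate 2 gave -6.47, and leaving out 6 h replicate 3 gave -2.88.

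HMOX1, the heme-degrading enzyme, had levels of 0.86, 1.39 and 1.46 before feeding, 2.54, 2.71 and 5.39 at 6 h and 1.22, 2.04 and 3.24 at 24 h. The groups overlapped and the difference was -1.38 ± 0.72, and -0.46 without 6 h replicate 3. SLC11A1, a metal transporter of phagosomes, differed by -1.33 ± 0.54, or -0.75 without 6 h replicate 3. FTH1, the ferritin heavy chain, had 10 probes that gave between -0.97 and -0.74. The brightest of them ran from -1.03 to -0.16 over 21 other settings, and from -1.03 to -0.55 leaving out 1 array.

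Stress hormone and immediate early genes had a median of -0.76, with 7 of 10 lower. JUN, a component of the AP-1 factor, differed by -1.75 ± 0.46. TXNIP, the inhibitor of thioredoxin that glucocorticoids and glucose induce, differed by -1.43 ± 0.33. ALOX5AP, which presents arachidonic acid to 5-lipoxygenase, differed by -1.68 ± 0.44. MYC and BTG1, a growth factor response gene and an antiproliferative gene, were higher at 24 h by 1.06 ± 0.42 and 0.92 ± 0.35.

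Heat shock proteins and chaperones had no common direction, with 11 of 26 higher and 15 lower (median -0.22, and -0.40 to 0.055 over 21 other settings). The inducible members had the widest differences. HSP70.2, an inducible member of the Hsp70 family, had levels of 0.57, 1.52 and 1.75 before feeding, 5.72, 3.65 and 8.05 at 6 h and 1.33, 2.70 and 2.18 at 24 h. No 24 h array reached a 6 h array, and the difference was -3.73 ± 0.88, a 13.3-fold lower signal. HSP70.2 has near-identical copies in the genome that the probe may not separate. HSPB1, a small heat shock protein, differed by -2.42 ± 0.57.

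Redox defence enzymes were divided too, with 12 of 27 higher and a median of -0.15 (-0.29 to 0.15 over 21 other settings). SOD2, the mitochondrial superoxide dismutase, had levels of 4.85, 4.99 and 5.29 before feeding, 6.28, 6.46 and 8.54 at 6 h and 5.49, 6.02 and 6.93 at 24 h. It had come part of the way back, with overlapping groups and a difference of -0.95 ± 0.57 that was -0.22 without 6 h replicate 3. PRDX5, a peroxiredoxin, differed by -0.98 ± 0.35. GPX2, a glutathione peroxidase, was higher by 1.02 ± 0.32. CPT1A, which admits fatty acids to mitochondria, differed by -0.96 ± 0.37 and remained 0.72 above its level before feeding.

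Several single transcripts were among those with the smallest p-values of the comparison, all with an adjusted p of 0.112 in limma. TSPO, a cholesterol-binding protein of the outer mitochondrial membrane, had levels of 8.93, 9.27 and 8.79 before feeding, 9.84, 9.79 and 10.30 at 6 h and 8.83, 8.63 and 8.58 at 24 h. All 6 h arrays were highest, and the difference between 24 h and 6 h was -1.30 ± 0.27. SH3BP5, a binding partner of Bruton's kinase, differed by -2.66 ± 0.55.

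Among the transcripts higher at 24 h, a probe matched to ribosomal protein S10 had levels of -0.82, -1.12 and -0.99 before feeding, -2.30, -2.18 and -2.24 at 6 h and -1.12, -1.02 and -0.91 at 24 h. The arrays within each group were close together, and the difference was 1.22 ± 0.24. SCAMP1, a membrane protein of secretory vesicles, was higher by 1.79 ± 0.42, and LANCL1, a glutathione-binding protein, by 1.46 ± 0.31. Paraspeckle protein 1, an RNA-binding protein of the nucleus, was higher by 1.51 ± 0.35. A probe for 2-aminoadipic 6-semialdehyde dehydrogenase, an enzyme of lysine breakdown, was not well above background on any 6 h array. Its signal at 24 h was at least 1.29-fold higher, counting the dimmer group at no less than the lowest signal well above background on each array.

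**Figure D3:**
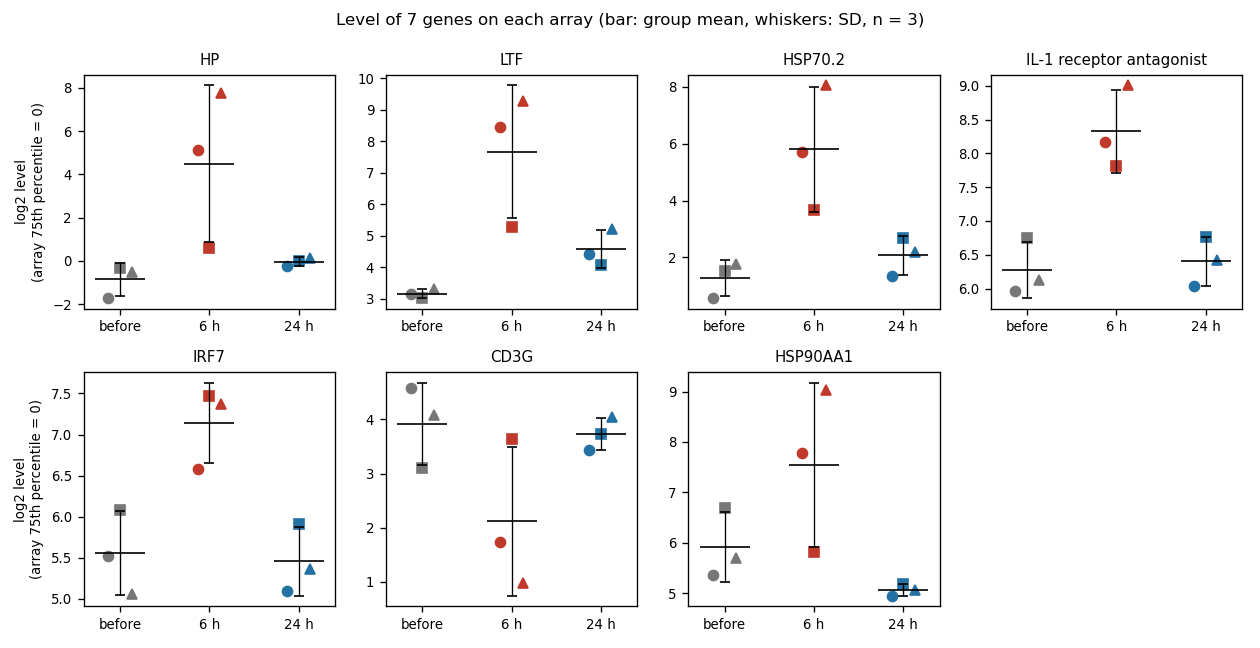
Log2 level (array 75th percentile = 0) of 7 genes on each array, by time. Points are arrays (circle, square and triangle for replicates 1 to 3), bars the group mean and whiskers the SD over 3 arrays; for HP, LTF, HSP70.2 and CD3G replicate 2 at 6 h stands apart from the other 6 h arrays, and for HSP90AA1 all 24 h arrays lie below all others.

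Cytosolic ribosomal proteins and the subunits of ATP synthase, cytochrome c oxidase and complex I had medians near 0 between 24 h and 6 h, and medians below 0 at both times against the level before feeding, except that spike-in centring without regard to its shift of all probes turned the latter above 0 at 24 h. The 60 transcripts of cytosolic ribosomal proteins had a median of 0.07 for 24 h minus 6 h, of -0.67 for 6 h minus before and of -0.66 for 24 h minus before. These comparisons share arrays and are not independent. Class levels were 6.31, 6.07 and 6.07 before feeding, 5.12, 5.88 and 5.15 at 6 h and 5.47, 5.59 and 5.66 at 24 h. The 24 h arrays were all below those before feeding and within the span at 6 h.

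This class depended on how arrays were scaled. With quantile normalization its median for 24 h minus 6 h was 0.51 above the shift of all probes, and the count of transcripts in which 24 h had moved further away was 5 in place of 25. Its median for 24 h minus before was then -0.20, and 0.29 with spike-in centring before the shift of all probes was taken off. Among its members RPLP1, a protein of the ribosomal stalk, was higher at 24 h by 1.59 ± 0.44.

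Between 24 h and 6 h the medians were -0.03 for complex I (12 transcripts), -0.08 for cytochrome c oxidase (8 transcripts) and -0.04 for ATP synthase (12 transcripts). Over 21 other settings these ran from -0.27 to 0.058, from -0.23 to 0.20 and from -0.15 to 0.27. Relative to the level before feeding the medians at 24 h were -0.32, -0.57 and -0.51. With quantile normalization they were -0.24, -0.42 and -0.34, and with spike-in centring, before the shift was taken off, 0.63, 0.38 and 0.44. Complexes II and III (5 transcripts) had a median of -0.10 for 24 h minus 6 h (-0.18 to 0.094 over 21 other settings), but of 0.21 for 6 h minus before and -0.11 for 24 h minus before. Their member SDHD, a membrane anchor of succinate dehydrogenase, stood 0.68 above its level before feeding at 24 h, and SDHB, its iron-sulfur subunit, 0.30. SDHA, the flavoprotein of that enzyme, differed by -0.11 from before feeding, and a brighter probe listed as a variant of SDHA gave -0.13. A dimmer SDHA probe gave 0.79. For cytochrome c oxidase, the complex that azide blocks, class levels were 4.14, 4.26 and 3.79 before feeding, 3.22, 3.91 and 3.51 at 6 h and 3.27, 3.53 and 3.69 at 24 h. The groups after dosing overlapped fully. Its subunit Va was the member with the smallest p, higher at 24 h than at 6 h by 0.99 ± 0.28.

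The order of the 3 group means places each 24 h mean, with no margin for spread. A 24 h mean just past the level before feeding thus counts as beyond it, as for IL6R at -0.01. Over all probes the 24 h mean lay between 6 h and the level before feeding in 40.0%, the level before feeding lay between the other two in 33.5%, so that 24 h had passed beyond it, and 24 h had moved further away in 26.5%. Of the neutrophil transcripts 5 of 8 lay between, of the monocyte 10 of 14, of the TNF and NF-kB 14 of 20, of the interferon 16 of 24 and of the Toll-like 10 of 13. Of the T cell transcripts 7 of 14 lay between and 4 had passed beyond. Cytosolic ribosomal proteins lay between in 30 of 60 and had moved further away in 25.

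**Figure D4:**
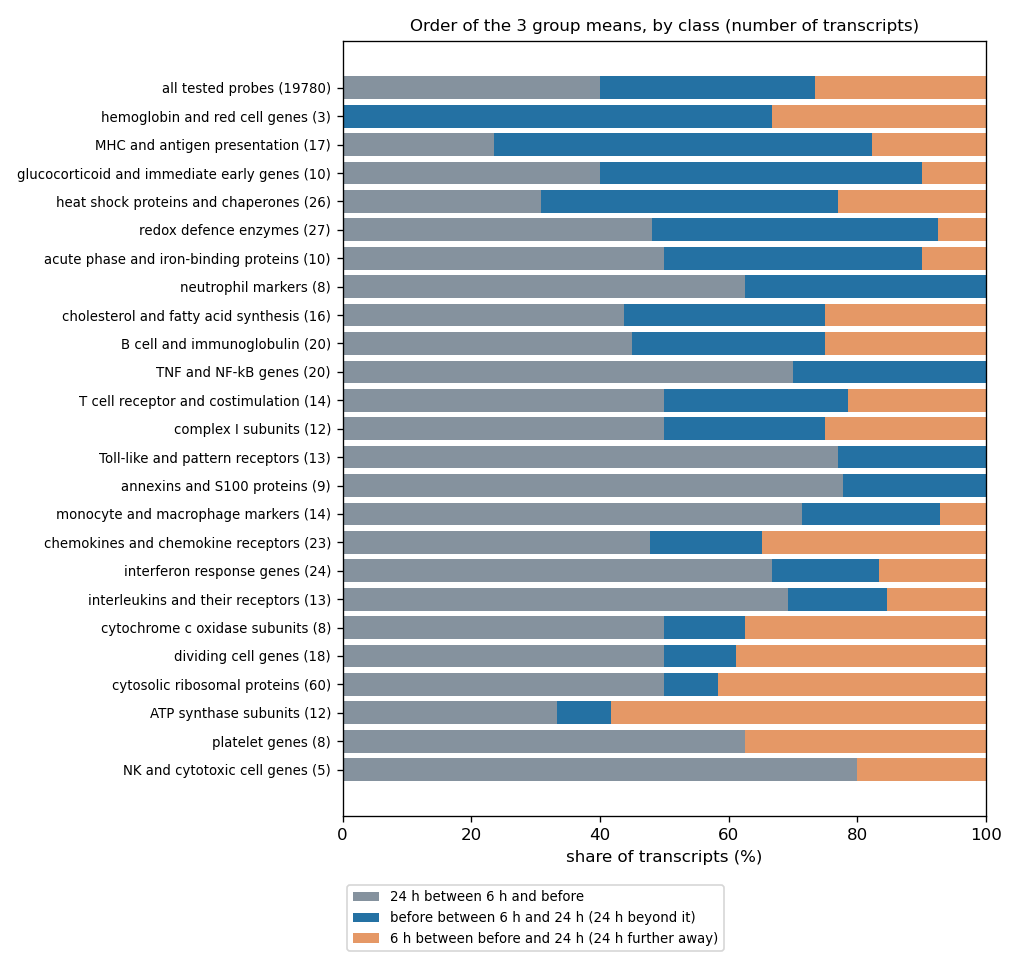
Share of transcripts (%) in each order of the 3 group means, for 24 protein classes and for all tested probes, with the number of transcripts in brackets. Colours mark 24 h between 6 h and before, 24 h beyond the level before feeding, and 24 h further away from it. Beside 33.5% of all probes, 10 of 17 MHC transcripts (9 downward) and 12 of 26 heat shock transcripts (8 downward) passed beyond. So did 12 of 27 redox defence transcripts (7 downward). Among classes not drawn, fatty acid oxidation had 8 of 16 beyond and translation factors 10 of 21.

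Transcripts of MHC and antigen presentation stood below their starting level at 24 h, with a median of -0.32 for 24 h minus before that was 0.027 with quantile normalization, 0.055 with normexp and 0.042 with the deposited values. Of 17 transcripts 15 were lower at 24 h than at 6 h (median -0.61) and 10 had passed beyond the level before feeding, 9 of them downward. Some of these gaps below the start were small, such as -0.03 for SLA-DQB1, and the widest was -1.24 for beta-2-microglobulin. Class levels were 6.06, 6.26 and 6.06 before feeding, 6.35, 6.33 and 6.50 at 6 h and 5.86, 5.82 and 5.87 at 24 h. The 3 arrays at 24 h lay within 0.02 (SD) of each other and below every other array.

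SLA-1, a class I heavy chain, had levels of 11.13, 11.45 and 11.08 before feeding, 11.21, 11.61 and 11.33 at 6 h and 10.78, 10.82 and 10.13 at 24 h. All 24 h arrays of this probe were lowest, and the difference from 6 h was -0.81 ± 0.29. Its 10 probes gave between -0.97 and -0.75 against 6 h and between -0.75 and 0.14 against the level before feeding. Class I genes share long stretches, so their probes may read one another's transcripts. PSMB9, a subunit of the immunoproteasome that cuts peptides for class I, differed by -0.61 ± 0.24, with all 24 h arrays below all others. A probe matched to part of beta-2-microglobulin, the light chain of class I, differed by -2.08 ± 0.64.

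This class too depended on scaling, and its probes are among the brightest, at a median signal percentile of 97.4. Of the brightest 1 percent of all probes 89.4% were lower at 24 h than at 6 h, with a median of -0.57. With quantile normalization the MHC median was -0.17 relative to the shift of all probes, and 4 transcripts in place of 10 passed beyond the level before feeding. With the authors' deposited values these were -0.16 and 5.

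By the stricter count, in which all 24 h arrays lay beyond all 6 h arrays and all arrays before feeding with the mean before feeding between, 715 probes (3.61%) had passed downward and 122 (0.617%) upward. Of the named transcripts 115 had passed downward and 19 upward. Heat shock proteins gave 4 of the former among 26 transcripts and MHC 4 among 17. Ubiquitin enzymes also gave 4, among 40 transcripts, and zinc finger proteins 4, among 61.

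HSP90AA1, the inducible Hsp90 chaperone, had levels of 5.37, 6.69 and 5.69 before feeding, 7.77, 5.81 and 9.04 at 6 h and 4.95, 5.18 and 5.07 at 24 h. All 24 h arrays lay below all others. Its difference from 6 h was -2.48 ± 0.67, its difference from before feeding -0.85, and its 4 probes gave between -2.48 and -1.69 against 6 h. Against the level before feeding they gave -0.85, -0.63, 0.16 and 0.25, so only 2 of the 4 stood below it.

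Histamine N-methyltransferase, which inactivates histamine, had levels of 0.26, 0.61 and -0.49 before feeding, 0.24, 0.34 and 1.27 at 6 h and -1.73, -1.79 and -0.64 at 24 h. It differed by -2.01 ± 0.43 from 6 h and by -1.52 from before feeding, the widest gap below the start among the genes named here. LY75, an endocytic receptor of dendritic cells, was read by probes of a pair of database entries, which gave -1.73 ± 0.42 and -1.88 ± 0.49. TMBIM6, an inhibitor of cell death in the endoplasmic reticulum, differed by -1.65 ± 0.36 from 6 h, but its other probe gave -1.0, and 0.015 against the level before feeding. The short form of cFLIP, which blocks caspase-8, differed by -1.36 ± 0.32.

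Transcripts of cholesterol and fatty acid synthesis had a median of -0.06 (-0.10 to 0.42 over 21 other settings), with 6 of 16 higher at 24 h.

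MDGA1, a membrane-anchored adhesion protein, differed by 1.87 ± 0.37 at signals near background, with 1 of 3 arrays well above it at 6 h. GPNMB, a glycoprotein of macrophages, passed upward with a difference of 1.08 ± 0.34, and RGS1, a brake on G protein signalling in lymphocytes, with 1.06 ± 0.36. PRELID3B, a lipid transfer protein of mitochondria, gave 1.41 ± 0.42 with 1 probe and -0.05 with the other.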

How the data were processed

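RNA of whole blood was labelled with Cy3 and hybridised to 1-colour Agilent porcine arrays, per the labels' protocols. The authors' deposited scanner files hold intensity values processed by Agilent Feature Extraction, 10.5.1.1 per the file headers and 9.5.3.1 per the submitters' processing notes. A deposited series-wide table holds intensity values of the same arrays, whose columns rank probes as the scanner files do but with no scaling stated in the labels or headers. Control and outlier spots were dropped, log2 intensities of each probe averaged and each array's 75th percentile subtracted. Probes were tested if every array of some time point had them well above background, and the 19780 probes were fitted with limma 3.58.1 in R 4.3.3 (all 9 arrays, time as the only term) with Benjamini-Hochberg adjustment at 0.05. The fit was tested on simulated data. Symbols came from RefSeq accessions (Sscrofa11.1 gene table) or the files' gene column, other names from the files' descriptions where a match covered at least 10% of the protein. A gene is shown by its brightest tested probe.

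Genes named are those with the 10 smallest p-values in each direction, up to 3 in each direction for each class, those passing beyond the level before feeding with the 10 largest differences in each direction, and a fixed list, from which the text makes a selection. Some genes that the rule names are not reported here. IL1RN and CXCL8 had no tested probe under their symbols and were read through their protein names. The probe for interleukin-8, the product of CXCL8, stood at 24 h 0.96 above 6 h and 1.74 above the level before feeding, at signals near background. The members, classes and lists were chosen with earlier results of these data known. The alternatives were other scalings, filters, array weights, a replicate block and leaving out each array.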

Additional observations from a re-analysis of the deposited data

How the results depend on the processing

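The count of probes for 24 h minus 6 h was 0 under 11 other settings and 5768 with array weights, and leaving out 1 array gave 0 to 1764, the latter without 6 h replicate 2. For 24 h minus before it was 0, and 6 with quantile normalization, 6 with the deposited values, 3432 with spike-in centring and 5467 with array weights. For 6 h minus before it was 5, and 8 with quantile normalization, 8 with the deposited values, 46 with spike-in centring, 606 with the replicate block and 9869 with array weights. It was 0 with a 75th percentile taken over the probes detected on all 9 arrays, with normexp, without a filter, with a filter on all 9 arrays and with a trended robust fit, and leaving out 1 array gave 0 to 2405.

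Spike-in centring moved the median of all probes from -0.09 to 0.65 and the share higher at 24 h from 43.7% to 85.4%. With a 75th percentile taken over the probes detected on all 9 arrays that share was 58.4%, and without a filter on dim probes 30.1%. Class medians under scalings that moved all probes by over 0.1 are given relative to that shift.

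Array weights gave class medians of -0.72 for neutrophil markers, 1.55 for cytotoxic cell genes, 0.38 for B cell genes, 0.023 for chemokines, -0.49 for MHC, 0.15 for redox enzymes, 0.69 for dividing cells, 0.20 for cytochrome c oxidase and 0.18 for cholesterol synthesis. With quantile normalization they were -0.17 for MHC, 0.11 for redox enzymes, 0.51 for ribosomal proteins, 0.27 for ATP synthase and -0.22 for annexins and S100 proteins. The deposited values gave -0.16, 0.10, 0.53, 0.26 and -0.20 in that order. Normexp gave -0.14 for MHC, 0.48 for ribosomal proteins, 0.17 for ATP synthase, -0.21 for annexins and S100 proteins, -0.35 for acute phase, -0.48 for interferon and -0.47 for stress hormone genes.

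Leaving out 1 array gave medians of 0.42 to 1.41 for cytotoxic cell genes, -1.07 to -0.37 for acute phase, -0.51 to 0.036 for chemokines, -0.94 to -0.56 for interferon, -0.63 to -0.54 for MHC, -0.29 to 0.12 for redox enzymes, 0.084 to 0.68 for dividing cells, -0.27 to 0.026 for complex I, -0.10 to 0.42 for cholesterol synthesis and -1.10 to -0.43 for annexins and S100 proteins. The cause was not tested.

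The strict downward count was 427 with quantile normalization and 415 with the deposited values, and 610 to 1125 leaving out 1 array. The upward count was 122, and 127 to 433 leaving out 1 array. With the deposited values 5 MHC transcripts passed beyond and 5 ribosomal transcripts moved further away. Quantile normalization gave 4 and 5, and leaving out 1 array gave 11 to 31 for the ribosomal count. CCR7 turned sign in 4 settings, at 0.087 with quantile normalization, 0.081 with normexp, 0.094 with the deposited values and 0.016 without 6 h replicate 1 (range -0.55 to 0.016 leaving out 1 array). The block of replicate numbers called 0 probes for 24 h minus 6 h. Same-numbered arrays correlated between -0.20 and 0.64 in their deviations from the group means (0.083 to 0.54 between 6 h and 24 h). An array correlated best with its own number in 4 of 6 cases between 6 h and 24 h and in 9 of 18 over all groups. The numbers were therefore not taken to pair the samples, and whether arrays share an animal is not settled by these values. Only 3 arrays a group limit the precision, and dim probes are measured near background.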
